A study of Homo sapiens with 6 samples.

Results

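The 9 genes PHGDH, PSAT1, PSPH, SHMT1, SHMT2, MTHFD1, MTHFD2, MTHFD1L and ALDH1L2 encode enzymes that make serine and glycine and that carry one-carbon units on folate. They were chosen by gene symbol, with earlier results of these data known. Each symbol matched 1 row of the deposited table, and the genes are 9 of its 23754 features. Expression was measured by RNA-seq of poly(A)-selected RNA from IMR-90, an established line of human fetal lung fibroblasts. All 6 libraries came from IMR-90 cells selected with puromycin for a Tet-pLKO-puro lentivirus that carries the hairpin sh-2 against ZNF469. The 3 DOX+ libraries (Sh-ZNF469 in the sample titles) were from cells given 2 µg/mL doxycycline for 4 days. The 3 DOX- libraries (Control in the titles) were from the same line cultured without doxycycline, although the submitted genotype field calls them wild-type. Doxycycline and the hairpin were present together in every DOX+ library and cannot be told apart. The submitters describe the 3 libraries of a group as technical replicates, so p-values measure only the spread between these libraries. Whether the line is a single clone is not given in the sources used here.

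Serine is made from a glycolytic intermediate by PHGDH, PSAT1 and PSPH acting in that order. A serine hydroxymethyltransferase, SHMT1 in the cytosol or SHMT2 in mitochondria, then splits serine into glycine and a one-carbon unit bound to tetrahydrofolate. In mitochondria MTHFD2 oxidises this unit, MTHFD1L releases it as formate for export, and ALDH1L2 can instead oxidise it to carbon dioxide. In the cytosol MTHFD1 carries out all of the interconversions in a single protein. Glycine is the most frequent residue of collagen, and several of these genes are textbook targets of the stress-response transcription factor ATF4.

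Total counts ranged from 34057675 to 36120260 per library, and 13991 features had enough counts to be tested, all 9 enzymes among them. ZNF469 itself stood at 118 CPM, 112 CPM and 126 CPM in the DOX- libraries and at 80.4 CPM, 80.4 CPM and 79.6 CPM in the DOX+ libraries (CPM, read counts scaled to library size with TMM factors), so the labels matched the targeted gene. The fibroblast markers VIM, THY1 and PDGFRB were abundant, while SFTPC, PECAM1, CDH5, CD3E and LYZ had 0 counts in every library. Other genes of the epithelial and leukocyte lists were detected, with KRT18 at 94.4 ± 3.52 CPM and 104.4 ± 9.47 CPM, KRT8 at 15.9 ± 1.07 CPM and 16.7 ± 1.18 CPM, and CD68 at 64.3 ± 3.39 CPM and 61.4 ± 3.26 CPM in DOX- and DOX+ libraries (SD, n = 3), all overlapping between groups and not called. Summed before TMM scaling, the epithelial markers ranged from 106.7 to 114.1 CPM in DOX- and from 111.8 to 132.1 CPM in DOX+ libraries, the leukocyte markers from 60.3 to 66.4 CPM and from 59.7 to 65.3 CPM, and the endothelial markers stayed under 1 CPM. DOX+ replicate 2 stood apart on the first principal component, scoring 32.8 where the other 5 lay between -12.6 and 0.5. Of 9 fibroblast markers 5 were called lower (0.715% of all features), among them COL1A1. The summed level of the 9 was 36590 to 37410 CPM before TMM scaling in DOX- libraries and 27720 to 28420 CPM in DOX+ libraries. What this shift has to do with the enzymes was not tested.

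Levels of different genes can be compared only per transcript length, for which the FPKM values deposited by the authors were used. In DOX- cells PSAT1 (55.9 ± 3.57 FPKM, SD, n = 3), PHGDH (55.7 ± 0.962 FPKM, SD, n = 3) and SHMT2 (52.8 ± 2.10 FPKM, SD, n = 3) were highest, and the libraries of neighbours in this order overlapped. MTHFD2 followed at 34.8 ± 4.73 FPKM (SD, n = 3), MTHFD1L at 26.2 ± 1.15 FPKM (SD, n = 3) and MTHFD1 at 22.03 ± 0.145 FPKM (SD, n = 3), each above the next without overlap. ALDH1L2 and PSPH overlapped at 10.4 ± 0.351 FPKM and 9.89 ± 1.02 FPKM (SD, n = 3), and SHMT1 was lowest at 4.68 ± 0.322 FPKM (SD, n = 3). In this line the mitochondrial hydroxymethyltransferase transcript was therefore far more abundant than the cytosolic one. In DOX+ cells the order at the top differed. SHMT2 came first at 48.7 ± 2.58 FPKM (SD, n = 3), clear of PHGDH at 41.3 ± 2.59 FPKM (SD, n = 3), which overlapped PSAT1 at 36.2 ± 2.53 FPKM (SD, n = 3). MTHFD2, at 27.1 ± 0.693 FPKM (SD, n = 3), overlapped MTHFD1L in DOX+ cells.

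**Figure D1:**
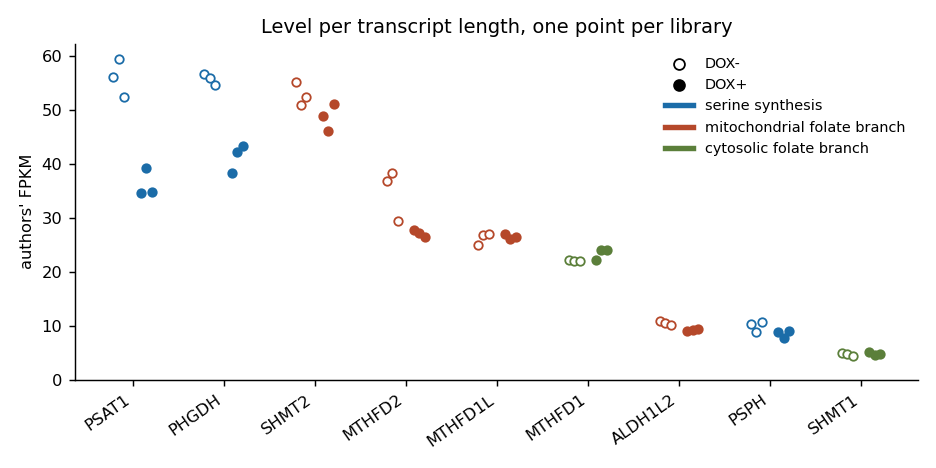
Deposited FPKM of each enzyme transcript (vertical axis, linear from 0) in the 3 DOX- libraries (open points) and the 3 DOX+ libraries (filled points), coloured by branch. PSAT1, PHGDH and SHMT2 sit together between 51.0 and 59.4 FPKM in DOX- cells, and SHMT1 lies lowest in both groups.

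To find whether ZNF469 knockdown changed the pathway, the groups were compared in edgeR (quasi-likelihood test), and p-values were adjusted by the Benjamini-Hochberg method across the 13991 features. PSAT1, PHGDH, MTHFD2 and ALDH1L2 fell in DOX+ cells. In CPM, PSPH and SHMT2 were lower in every DOX+ library than in any DOX- library but did not pass an adjusted p of 0.05. MTHFD1L and the cytosolic enzymes SHMT1 and MTHFD1 overlapped between the groups. Of the 9 genes, 4 were called lower, against 0.715% of all features, and 0 were called higher, against 0.4% of all features (1.12% in either direction). Their median log2 fold change was -0.22, against -0.0020 for all features, and it was below 0 in 8 of them, as in 50.7% of all features. In 6 of the 9 the DOX+ libraries lay below the DOX- libraries in CPM without overlap, as they did for 10.6% of all features. In 0 they lay above (9.73% of all features). Because the genes were chosen with results known, these shares are no independent evidence that the pathway changed. In bulk RNA a lower level in all cells and a loss confined to some cells cannot be told apart.

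**Figure D2:**
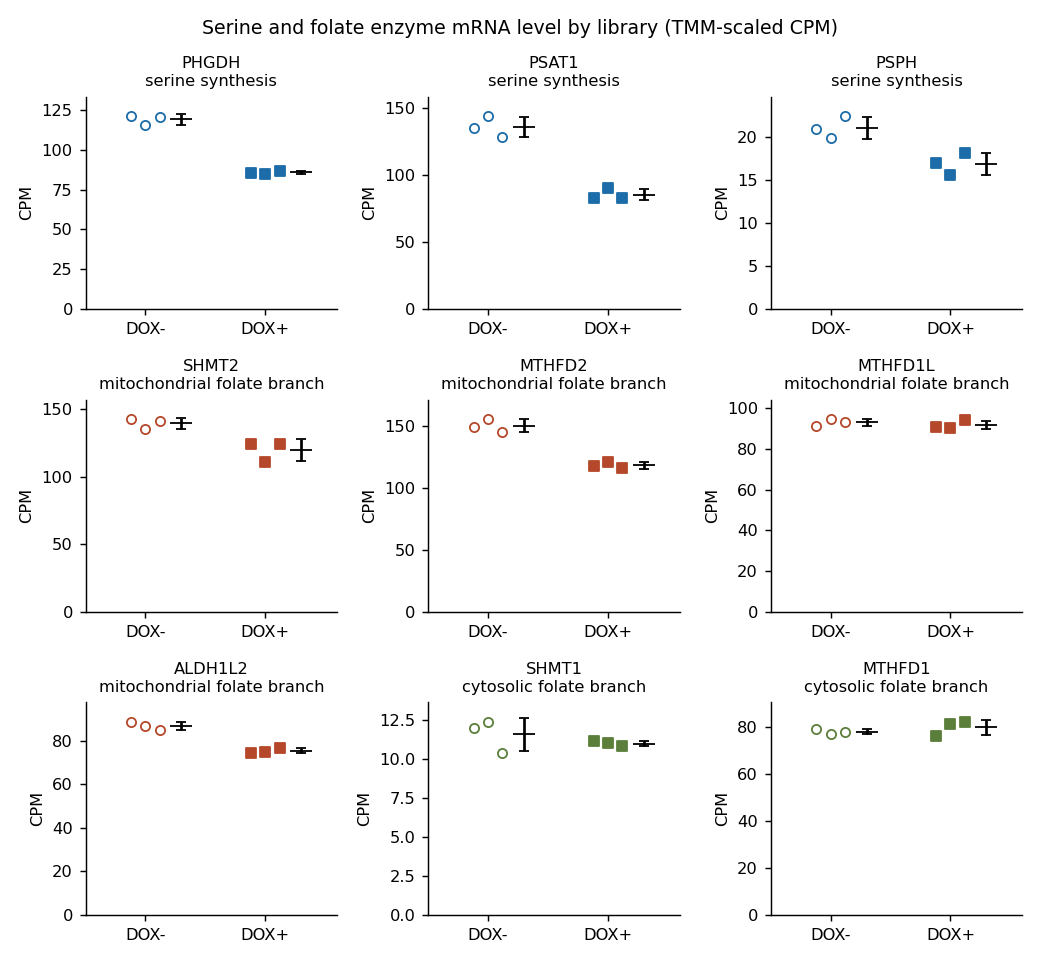
TMM-scaled CPM (vertical axes, each linear from 0) of the 9 enzymes in each DOX- library (open circles) and DOX+ library (filled squares), with group mean and SD beside them (n = 3). The groups are fully apart in the 3 serine synthesis panels and in SHMT2, MTHFD2 and ALDH1L2, and overlap in MTHFD1L, SHMT1 and MTHFD1.

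PSAT1 and PHGDH, of the serine synthesis branch, had the largest log2 fold changes of the 9. PSAT1 (ENSG00000135069), the aminotransferase of the pathway, lies on the plus strand of chromosome 9 of GRCh38 from 78297125 to 78330093, and its canonical transcript in GENCODE 44 has 9 exons and 2206 bases. Its level was 135 CPM, 144 CPM and 129 CPM in the DOX- libraries, and 82.8 CPM, 90.2 CPM and 82.7 CPM in the DOX+ libraries. The highest DOX+ library was thus far below the lowest DOX- library. The mean went from 136 ± 7.68 CPM to 85.2 ± 4.28 CPM (SD, n = 3), or 62.8% of the DOX- level. On the log2 scale this was -0.67 with a standard error of 0.0514 (edgeR adjusted p = 1.91e-05). PSAT1 ranked 6 of all features by p-value.

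PHGDH (ENSG00000092621), the dehydrogenase that commits carbon to serine, spans 119648411 to 119744218 on the plus strand of chromosome 1. It was measured at 121 CPM, 115 CPM and 121 CPM without doxycycline and at 85.6 CPM, 85.0 CPM and 86.9 CPM with it. The 3 DOX+ values were nearly equal (SD 0.983 CPM) and all below the DOX- values. In log2 terms PHGDH changed by -0.47 (standard error 0.0404, edgeR adjusted p = 3.50e-05), with 72.0% of the level left, and PHGDH ranked 12 by p-value, next to ZNF469 at 11.

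PSPH (ENSG00000146733), the phosphatase that completes the synthesis, lies on the minus strand of chromosome 7 from 56011051 to 56051604. It was the least abundant of the 3, at 20.9 CPM, 19.8 CPM and 22.4 CPM in DOX- libraries and 16.9 CPM, 15.5 CPM and 18.1 CPM in DOX+ libraries. These values did not overlap, but the log2 fold change of -0.32 (95% interval -0.50 to -0.15) had an edgeR adjusted p of 0.0775. With DESeq2's Wald test PSPH was called lower (adjusted p = 0.0193). In FPKM values its groups overlapped and its log2 fold change was -0.21 (limma adjusted p = 0.383). Summed over the 3 genes, serine synthesis reads went from 276 ± 3.69 CPM to 188 ± 2.66 CPM (SD, n = 3). To the difference of -88.05 CPM, PSAT1 contributed -50.5 CPM, PHGDH -33.4 CPM and PSPH -4.21 CPM. These contributions are in reads, since CPM is not scaled to transcript length.

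Within the mitochondrial folate branch, 2 of 4 genes were called lower, MTHFD2 and ALDH1L2, against 0.715% of all features. MTHFD2 (ENSG00000065911), the dehydrogenase and cyclohydrolase that is low in most adult tissue and high in proliferating cells, lies on the plus strand of chromosome 2 from 74186172 to 74217565. It was measured at 149 CPM, 156 CPM and 145 CPM in DOX- libraries and at 118 CPM, 121 CPM and 116 CPM in DOX+ libraries, with no overlap. Its log2 fold change was -0.34 (standard error 0.0409, edgeR adjusted p = 8.07e-04), which left 78.8% of the DOX- level. In the deposited FPKM values MTHFD2 had a similar change (-0.35) but did not pass (limma adjusted p = 0.207). Its FPKM was 36.8, 38.2 and 29.4 in DOX- libraries and 27.7, 27.2 and 26.4 in DOX+ libraries, also without overlap, and the FPKM fit called 24 features lower and 6 higher in all.

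SHMT2 (ENSG00000182199), which feeds the mitochondrial branch, lies on the plus strand of chromosome 12 from 57229573 to 57234935. Its DOX- libraries held 143 CPM, 135 CPM and 141 CPM and its DOX+ libraries 124 CPM, 110.4 CPM and 124 CPM, again without overlap. DOX+ replicate 2 was the lowest of the 6. The log2 fold change of -0.22 (95% interval -0.33 to -0.11) narrowly missed the threshold (edgeR adjusted p = 0.0546). The change passed with DESeq2 (adjusted p = 7.65e-04), and was -0.12 in FPKM values, where the groups overlapped (limma adjusted p = 0.379). SHMT2 was not called with any of the 6 libraries left out (edgeR adjusted p from 0.0541 to 0.198). Without DOX+ replicate 2 its log2 fold change was -0.17 (edgeR adjusted p = 0.124).

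ALDH1L2 (ENSG00000136010), the mitochondrial formyl-tetrahydrofolate dehydrogenase, lies on the same chromosome on the minus strand from 105019784 to 105107643. It stood at 88.7 CPM, 86.6 CPM and 84.9 CPM in DOX- libraries and at 74.4 CPM, 75.0 CPM and 76.8 CPM in DOX+ libraries. The groups were apart and narrow, and their log2 difference was -0.20 (standard error 0.0407, edgeR adjusted p = 0.0325). The call was lost when any of the 6 libraries was left out (edgeR adjusted p from 0.0533 to 0.169), while the fold change stayed between -0.22 and -0.18. ALDH1L2 was thus just inside the threshold and SHMT2 just outside it.

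MTHFD1L (ENSG00000120254), the mitochondrial enzyme that yields formate, lies on the plus strand of chromosome 6 from 150865679 to 151101887. It differed from the other 3 mitochondrial genes. Its DOX- libraries held 91.3 CPM, 94.8 CPM and 93.3 CPM and its DOX+ libraries 90.9 CPM, 90.5 CPM and 94.1 CPM, so the groups overlapped. The log2 fold change was -0.020, with a 95% interval of -0.11 to 0.07 (edgeR adjusted p = 0.863), and its sign changed with library size scaling and with FPKM values. This interval lay entirely above that of MTHFD2 (-0.43 to -0.26). Per library, the log2 ratio of MTHFD2 to MTHFD1L was 0.71, 0.72 and 0.64 in DOX- cells and 0.38, 0.42 and 0.30 in DOX+ cells, without overlap. Reads of the 4 mitochondrial genes summed to 469 ± 4.31 CPM in DOX- cells and 405 ± 7.38 CPM in DOX+ cells (SD, n = 3), a difference of -64.4 CPM. MTHFD2 contributed -31.9 CPM of it, SHMT2 -19.9 CPM, ALDH1L2 -11.3 CPM and MTHFD1L -1.29 CPM. CPM is not scaled to transcript length, so these contributions are in reads and not in numbers of transcripts.

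**Figure D3:**
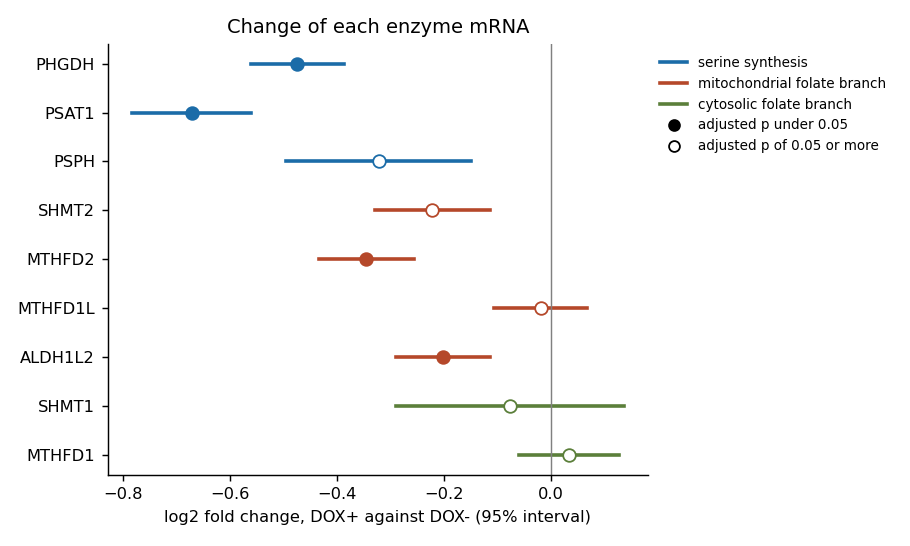
Log2 fold change of each enzyme in DOX+ against DOX- cells (horizontal axis, points) with its 95% interval from edgeR (lines), coloured by branch; filled points passed an adjusted p of 0.05. The 4 called genes run from -0.67 for PSAT1 to -0.20 for ALDH1L2, and the intervals of MTHFD1L, SHMT1 and MTHFD1 cover 0.

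Neither cytosolic enzyme was called. MTHFD1 (ENSG00000100714), on the plus strand of chromosome 14 from 64388031 to 64463457, was measured at 79.1 CPM, 77.3 CPM and 78.2 CPM in DOX- libraries and at 76.4 CPM, 81.2 CPM and 82.4 CPM in DOX+ libraries. The DOX+ values fell on both sides of the DOX- values. Its log2 fold change was 0.03 with a 95% interval of -0.06 to 0.13 (edgeR adjusted p = 0.771), an interval that leaves out a decrease of the size seen for MTHFD2. SHMT1 (ENSG00000176974), on the minus strand of chromosome 17 from 18327860 to 18363563, had 11.96 CPM, 12.4 CPM and 10.4 CPM in DOX- libraries and 11.1 CPM, 11.0 CPM and 10.8 CPM in DOX+ libraries. At this low level the interval was wide (-0.29 to 0.14, around a log2 fold change of -0.08 that turned to 0.026 with FPKM values, edgeR adjusted p = 0.763), so a change of the size seen for SHMT2 was not detectable at this depth.

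The balance between the branches was then compared within each library. The mean log2 CPM of the 4 mitochondrial genes exceeded that of the 2 cytosolic genes by 1.90, 1.89 and 1.98 in DOX- libraries and by 1.77, 1.71 and 1.76 in DOX+ libraries. The groups did not overlap, and the mean excess differed by -0.18 (DOX+ minus DOX-). No p-value is given for this score or the ratios, because the genes were chosen with results known. The log2 ratio of MTHFD2 to MTHFD1 was 0.91, 1.01 and 0.90 in DOX- libraries and 0.63, 0.57 and 0.49 in DOX+ libraries, again without overlap. The log2 ratio of SHMT2 to SHMT1, which carry out the same reaction, overlapped between groups, at 3.58, 3.44 and 3.76 against 3.48, 3.33 and 3.52. Its means differed by -0.15, close to the difference of the branch means. SHMT1 was measured at a low level, so this overlap does not show that the pair kept its balance. The log2 ratio of MTHFD1L to MTHFD1 overlapped too, with means of 0.25 ± 0.044 and 0.20 ± 0.047 (SD, n = 3). The lower mitochondrial balance therefore rested on MTHFD2, SHMT2 and ALDH1L2, and the groups were not apart for every paralogous pair. The serine synthesis genes shifted further against the cytosolic pair, with a difference of -0.47 on the log2 scale (means 1.22 ± 0.077 and 0.75 ± 0.025, SD, n = 3).

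**Figure D4:**
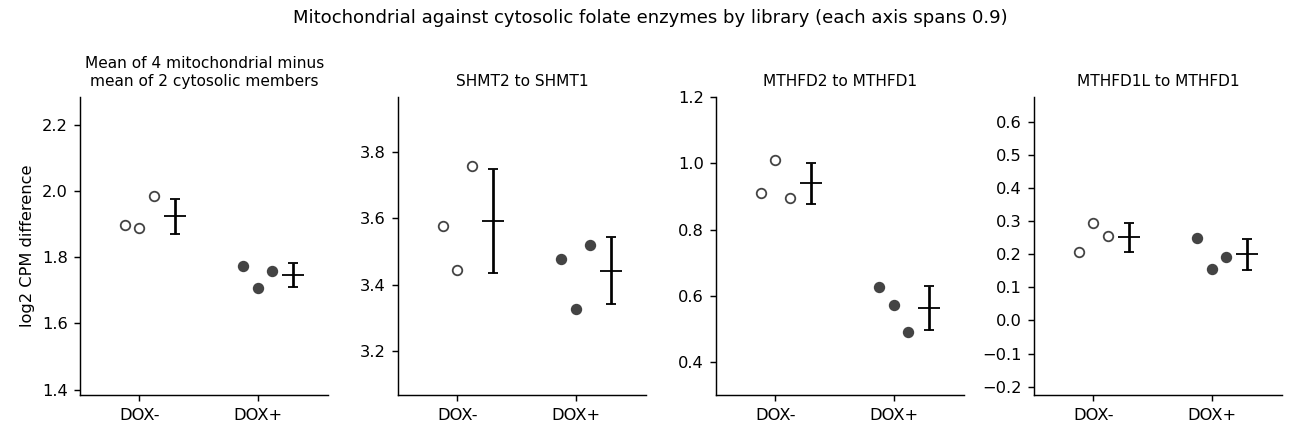
Difference in log2 CPM between mitochondrial and cytosolic folate enzymes (vertical axes, each spanning 0.9) in every DOX- library (open points) and DOX+ library (filled points), with mean and SD (n = 3). The groups are apart for the branch means and for MTHFD2 to MTHFD1, and overlap for SHMT2 to SHMT1 and MTHFD1L to MTHFD1.

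Members that fell together were next examined for a shared promoter sequence. RefSeq windows of GRCh38.p14, from 250 bases before to 50 bases after a start site, were found for PHGDH, PSAT1, MTHFD2, MTHFD1L, SHMT1 and MTHFD1. Both strands were searched for TGATGNAA, the core of the composite element bound by ATF4 with C/EBP factors, and for CACGTG, the E-box; the motifs do not overlap each other. TGATGNAA occurred in the windows of 2.66% of the tested genes that had one and CACGTG in those of 12.5%. The windows of PSAT1, PHGDH and MTHFD2, which fell, held neither motif. Nor did the window of SHMT1, which was not called. PSPH, SHMT2 and ALDH1L2 had no window and were not searched. With TGATGNAA this rare in tested genes, its absence from so few windows says little about a shared sequence. The stretches before the canonical start sites of PSAT1 (plus strand, chr9:78296875-78297124) and MTHFD2 (plus strand, chr2:74198365-74198609) are shown because these genes led the decrease in their branches; they are in lower case throughout since no motif was found.

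PSAT1: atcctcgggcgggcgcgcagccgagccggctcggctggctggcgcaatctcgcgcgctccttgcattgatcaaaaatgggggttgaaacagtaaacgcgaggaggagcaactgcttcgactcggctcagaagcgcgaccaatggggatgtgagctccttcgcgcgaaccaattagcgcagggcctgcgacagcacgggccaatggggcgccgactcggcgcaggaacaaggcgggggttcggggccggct
MTHFD2: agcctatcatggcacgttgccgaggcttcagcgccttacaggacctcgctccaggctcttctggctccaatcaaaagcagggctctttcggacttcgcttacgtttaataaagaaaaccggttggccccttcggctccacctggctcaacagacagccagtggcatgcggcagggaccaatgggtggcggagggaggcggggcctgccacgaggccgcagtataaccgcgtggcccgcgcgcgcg

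A match to TGATGNAA was found for MTHFD1L, which did not pass the test. It lies at chr6:150866357-150866364 on the plus strand, in windows of alternative RefSeq start sites and downstream of the canonical start at 150865702. An E-box stands just before it, at chr6:150866332-150866337, and MTHFD1 has an E-box at chr14:64388338-64388343. The sites are shown with 10 bases on each side and the motif in capitals. A match describes the letters in these windows only and says nothing about binding.

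MTHFD1L, TGATGNAA: ccgccggctcTGATGCAAtcgcgccggg
MTHFD1L, E-box: cgcccggctcCACGTGcgcagccggc
MTHFD1, E-box: agtccctaagCACGTGggttgggttg

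The rest of the pathway was described with 4 lists of 49 genes, of which 38 had enough counts to be tested. Of these 38, 3 were called lower (0.715% of all features) and 0 higher (0.4%), and their median log2 fold change was 0.015. The DOX+ libraries lay below without overlap for 8 of them and above for 4 (10.6% and 9.73% of all features). None of the 10 other cytosolic folate and folate uptake genes tested was called, with log2 fold changes from -0.25 to 0.10. In mean CPM the highest of them was TYMS, the thymidylate synthase, at 128 ± 2.70 CPM and 134 ± 6.88 CPM (SD, n = 3). ATIC, a purine synthesis enzyme that uses formyl-folate, came next at 86.3 ± 3.18 CPM and 87.1 ± 2.25 CPM (SD, n = 3). None of the 10 other mitochondrial folate and glycine cleavage genes tested was called either. A log2 fold change above 0 was seen in 9 of them, and in 6904 of the 13991 features tested. DLD, shared by glycine cleavage and other dehydrogenase complexes, was at 94.0 ± 2.53 CPM and 96.9 ± 5.51 CPM (SD, n = 3), and the mitochondrial carrier SFXN3 at 84.8 ± 3.02 CPM and 85.8 ± 3.68 CPM (SD, n = 3). GLDC, the decarboxylase of glycine cleavage, had at most 14 counts in any library and AMT, its aminomethyltransferase, at most 25, so neither could be tested. Both ALDH1L1, the cytosolic paralogue of ALDH1L2, and SDS, a serine dehydratase, had 0 counts in all libraries.

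In the methionine cycle and transsulfuration list, 1 of 8 tested genes was called lower (0.715% of all features). CBS, which joins serine to homocysteine, stood at 53.3 CPM, 51.8 CPM and 47.1 CPM in DOX- libraries and at 39.5 CPM, 38.7 CPM and 36.0 CPM in DOX+ libraries (log2 fold change -0.41, standard error 0.0586, edgeR adjusted p = 0.00327). CBSL is a nearly identical copy annotated on the same assembly, and reads can be divided between them in an uncertain way. Summed with CBSL, the level was 70.4 ± 2.05 CPM in DOX- cells and 53.9 ± 2.72 CPM in DOX+ cells (SD, n = 3), still without overlap. MAT2A and AHCY, of the methionine cycle, had log2 fold changes of -0.07 and 0.04 and were not called (edgeR adjusted p = 0.378 and 0.735).

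Among 10 tested serine and glycine carriers and other serine users, 2 were called lower (0.715% of all features). The DOX+ libraries lay below without overlap for 4 of the 10 and above for 2 (10.6% and 9.73% of all features). SLC6A9, the glycine transporter GLYT1, stood at 8.83 CPM, 9.38 CPM and 9.72 CPM in DOX- libraries and at 5.55 CPM, 5.22 CPM and 5.27 CPM in DOX+ libraries, or 57.5% of the DOX- level (edgeR adjusted p = 0.00275). SLC1A5, a carrier of neutral amino acids that include serine, stood at 283 CPM, 277 CPM and 292 CPM against 238 CPM, 223 CPM and 229 CPM (log2 fold change -0.30, standard error 0.0379, edgeR adjusted p = 0.00126). SLC38A2, the most abundant carrier of the list, overlapped between groups at 821 ± 33.3 CPM and 846 ± 44.2 CPM (SD, n = 3).

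Other gene groups that could move with these enzymes were measured beside them. In a list of ATF4 and 10 of its stress targets, 5 of 11 genes were called lower (0.715% of all features) and 0 higher (0.4%). In CPM all 11 lay below the DOX- libraries without overlap (10.6% of all features), at a median log2 fold change of -0.29. In deposited FPKM values ATF4, ATF5, SESN2 and SLC7A11 overlapped between groups, with ATF4 at 176 ± 23.3 FPKM and 174 ± 3.36 FPKM (SD, n = 3). The list was written with earlier results known and is no independent evidence. ATF4 itself was at 303 CPM, 314 CPM and 301 CPM in DOX- libraries and at 284 CPM, 269.6 CPM and 278 CPM in DOX+ libraries, a log2 fold change of -0.14 that did not pass (edgeR adjusted p = 0.0795). Of 18 mitochondrial matrix and import genes, 0 were called in either direction, and their median was -0.0070. CS, the citrate synthase, was at 197 ± 3.42 CPM and 198 ± 2.56 CPM (SD, n = 3). Of 14 proliferation genes 0 were called, with log2 fold changes from -0.10 to 0.12 and a median of -0.04. In 11 of them the change was below 0 (50.7% of all features). The DOX+ libraries lay below without overlap for 5 of them and above for 1 (10.6% and 9.73% of all features). Summed before TMM scaling, the 14 genes overlapped between groups, at 1669 to 1721 CPM in DOX- and 1677 to 1714 CPM in DOX+ libraries. COL1A1, the gene whose change had the smallest p-value, fell by 0.69 on the log2 scale in the same libraries. Whether the lower ATF4 targets or collagen transcripts bear on the enzymes was not tested.

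**Figure D5:**
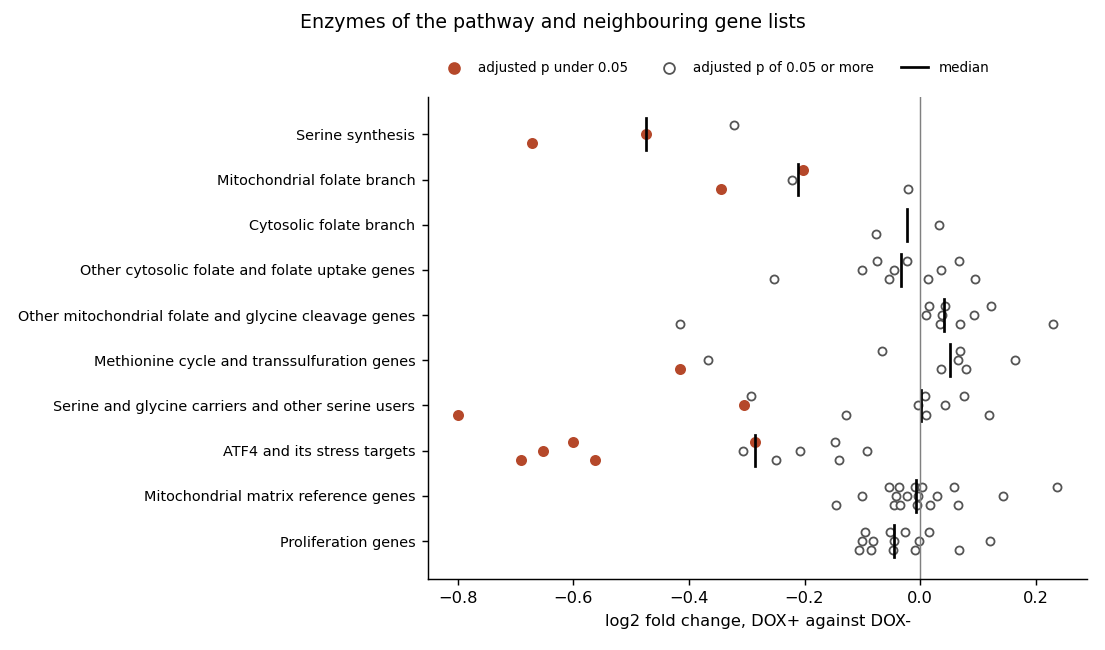
Log2 fold change in DOX+ against DOX- cells (horizontal axis) for every tested gene of the serine and folate branches and of 7 neighbouring lists (rows), with list medians as bars; filled points passed an adjusted p of 0.05. Serine synthesis, the mitochondrial branch and the ATF4 list lie to the left of 0 (MTHFD1L, at -0.020, changes sign with library size scaling and FPKM values), while mitochondrial matrix and proliferation genes centre near 0.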

How the data were processed

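RNA-seq libraries (3 DOX-, 3 DOX+) were grouped by sample title. Per the study's methods and the submitters' processing notes, reads passed a quality filter and went through HISAT2 (GRCh38) and StringTie; versions, annotation release and the counting step are not given in the sources used here. The authors deposited whole read counts per gene, without normalization, and FPKM values. Of the lines in the table, 17 stray ones were dropped; 3780 of 23754 features are unannotated loci.

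Counts were tested with edgeR 4.0.16 in R 4.3.3 (filterByExpr with a minimum count of 10, TMM factors from 0.988 to 1.01, quasi-likelihood test, Benjamini-Hochberg adjustment over 13991 features, threshold 0.05). Standard errors were taken as |log2 fold change| over the root of the F statistic. Exact permutation tests of single genes cannot go below p = 0.1 here. Branch scores are mean log2 CPM. The deposited FPKM values were used for levels between genes and, with limma 3.58.1 on log2(FPKM + 0.1), as an alternative added after the data were seen. Other alternatives used DESeq2 1.42.0, limma-voom, other scalings and filters, single libraries left out, a replicate block, and lowess trends (span 0.3) on length or GC content from GENCODE 44. Scripts were tested on simulated data. Members and lists were chosen with earlier results of these data known. The text names the 9 enzymes and ZNF469. From each of the 4 pathway lists it names the called genes and the 2 with the highest mean CPM. It also names the 5 genes with the most similar profile. Further genes were named after their values were seen.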

Additional observations from a re-analysis of the deposited data

How the results depend on the processing

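PSAT1 and PHGDH kept their direction and their call in all 18 alternatives each, with log2 fold changes from -0.71 to -0.63 and from -0.50 to -0.42. Between 3 and 6 of the 9 enzymes were called lower in the alternatives based on counts, against 4 in the reported fit, and 2 with FPKM values; 0 were called higher in any. Leaving out any 1 library gave 3. PSPH was called lower with DESeq2 (adjusted p = 0.0193), and SHMT2 with DESeq2 (7.65e-04), limma-voom (0.0475), no filter (0.0169) and the GC trend removed (0.0257). ALDH1L2 lost its call with library size scaling (0.0557), FPKM values (0.267) and a threshold of 0.01. Changes of sign were limited to MTHFD1L with library size scaling (4.5e-04) and FPKM values (0.012), and SHMT1 with FPKM values (0.026), none of them called; the cause was not tested. The mitochondrial minus cytosolic difference stayed between -0.21 and -0.15 in 12 alternatives. The difference in the SHMT2 to SHMT1 log2 ratio was -0.15, and -0.068 without DOX- replicate 3.

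The libraries share replicate numbers, but same-numbered libraries did not deviate together (correlations -0.024, -0.035 and 0.036). With 3 libraries per group these correlations cannot exclude a pairing, and the reported fit used none. With the replicate number as a block, 6 enzymes were called lower, PSPH (log2 fold change -0.32, edgeR adjusted p = 0.0419) and SHMT2 (-0.22, 0.0168) being added, and over all features 157 were lower and 135 higher, against 100 and 56. Those counts were 163 and 127 with no filter and also with the GC trend removed, 267 and 260 with DESeq2, 77 and 88 with library size scaling, 24 and 6 with FPKM values, and 54 to 92 and 20 to 69 with a library left out.

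Depth limits SHMT1 and PSPH most. GENCODE 44 names pseudogene copies of MTHFD2 (7), PSAT1 (4), PSPH (1), SHMT1 (1) and MTHFD1 (1), none with a row of its own in the table; how their reads were assigned is not given in the sources used here.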

Other observations

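Over the 6 libraries, the genes whose log2 CPM followed the mean standardized profile of the 7 serine synthesis and mitochondrial enzymes most closely, among 9612 genes with a mean log2 CPM over 3, were SLC3A2 (Pearson r = 0.996), GTPBP2 (0.995), UCK2 (0.992), RRS1 (0.991) and GFRA1 (0.991). The points are 6 libraries in 2 groups, so these values describe the group difference as much as the spread within groups, and no p-value is given. SLC3A2, the heavy chain shared by several amino acid exchangers, stood at 238 CPM, 238 CPM and 242 CPM in DOX- libraries and at 177 CPM, 167 CPM and 183 CPM in DOX+ libraries (log2 fold change -0.45, edgeR adjusted p = 5.32e-05). GFRA1, a co-receptor for GDNF-family ligands, stood at 41.7 CPM, 41.0 CPM and 41.1 CPM against 31.6 CPM, 31.9 CPM and 34.1 CPM (log2 fold change -0.34, edgeR adjusted p = 0.0055). RRS1, a ribosome biogenesis factor, had the smallest change of the 5, at -0.19, and did not pass the threshold (edgeR adjusted p = 0.0521).

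Of the 3 sideroflexins in the pathway lists, a family of mitochondrial carriers in which SFXN1 transports serine, 0 were called; SFXN1 and SFXN2 were named after their values were seen. SFXN1 was higher in every DOX+ library (74.2 CPM, 77.8 CPM and 74.5 CPM) than in any DOX- library (67.8 CPM, 71.8 CPM and 68.4 CPM), at a log2 fold change of 0.12 (edgeR adjusted p = 0.208). SFXN2, at a far lower level, was lower in every DOX+ library (1.71 CPM, 1.86 CPM and 2.15 CPM) than in any DOX- library (2.33 CPM, 3.04 CPM and 2.27 CPM), at a log2 fold change of -0.42 (edgeR adjusted p = 0.36). SFXN3, described with its list, overlapped between groups.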
